A study of Mus musculus with 21 samples.

Results

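The collagen chains are described here in fetal mouse lungs after cigarette smoke exposure of the pregnant dams. A gene counted as a collagen chain if its symbol reads Col, number, a, number and a probe set on the array carries this symbol alone. By this rule 44 of the 22180 genes with a probe set of their own were collagen chains. The 44 genes had 47 probe sets, and for the 3 genes with 2 probe sets the one with the higher mean over all 21 arrays stood for the gene. By the molecule they form, 8 genes were placed among the fibrillar chains, 8 among the basement membrane chains, 7 among the chains typical of cartilage and 21 among the others.

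The mRNA arrays measured whole lungs of wild-type Balb/c fetuses at E18.5, with 1 array per fetus and no pooling. The CS group held 12 fetuses (6 males and 6 females) whose dams inhaled mainstream smoke of research cigarettes from gestational day 2.5 to 17.5. The AIR group held 9 fetuses (5 males and 4 females), whose dams received filtered air by the paper and are called untreated by the labels. The dose that reached each fetus is not given. By the paper each litter gave a fetus of each sex. The labels do not name litters, and whether close animal numbers mark littermates is not given. A group may therefore hold fewer litters than fetuses, and p-values that treat fetuses as independent may be too small.

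Collagens are secreted proteins in which chains of a repeated glycine motif wind into a triple helix. Fibrillar collagens assemble into the fibrils that carry tension in the lung interstitium, around airways and in vessel walls. Type IV collagen forms the sheet-like network of basement membranes, on which the epithelium and the endothelium of the lung rest. Other types decorate fibrils, form beaded filaments, span cell membranes or build the cartilage of the trachea and large bronchi.

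Values are log2 intensities from robust multi-array averaging, on which a difference of 1 is a doubling of intensity, and the lowest values lie near the background of the array. The array medians lay between 2.1 and 2.2, and 14 of the 44 collagen chains had a mean below the median probe set of 2.12. All 11 epithelial, all 10 endothelial and 9 of 10 mesenchymal markers of the lung had means above that median. On 10 of the 21 arrays the mean of a marker list of heart muscle, skeletal muscle, thymocytes or oesophagus lay more than 1 above the median of the arrays, while 0 arrays did so for cartilage or liver. These were 4 of 12 CS and 6 of 9 AIR arrays. The median difference between CS and AIR was -0.56 over 12 heart muscle markers, with 3 lower and 0 higher at the study threshold described below, and -0.46 over 10 skeletal muscle markers, with 0 called. Within the lower animal numbers, defined next, these medians were -0.79 and -0.52, and within the higher numbers -0.16 and -0.14. Over 9 thymocyte markers the median went the other way, 0.42 pooled, 0.95 in the lower and 0.007 in the higher numbers. Over 9 oesophagus markers it was -0.22 pooled, -0.12 in the lower and -0.13 in the higher numbers. The part of these lists in the collagen values was not tested, other than in fits that left the high arrays out or held the heart muscle mean constant. In the latter the same 4 collagen chains passed that threshold as in the pooled comparison. In the fit that left the high arrays out, which kept 8 CS and 3 AIR arrays, Col11a2 and Col9a2 among these chains no longer passed it. Animal numbers in the labels fall, at their widest gap, into a lower range (8 CS and 3 AIR fetuses) and a higher range (4 CS and 6 AIR fetuses). What these numbers stand for is not given in the sources used here, and the values within each range are given beside the pooled ones.

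Most collagen chains differed little between the exposures. A chain was called if its fold change exceeded 1.2 in either direction and limma gave it an unadjusted p under 0.05, the study threshold. By this, 3 of 44 chains were higher in CS lungs (Col12a1, Col11a2 and Col9a2) and 1 was lower (Col4a2). This was 9.09% of the chains, while 4.41% of all 40543 probe sets were called in either direction, 2.22% higher and 2.19% lower. The number ranges hold CS and AIR unevenly. In a fit blocked by range 2 of the 4 calls were left, Col12a1 higher and Col4a2 lower. No collagen chain had a Benjamini-Hochberg adjusted p under 0.10 in limma, and the lowest was 0.468. At an unadjusted p under 0.05 in limma without the fold limit, 5 of 44 chains were counted. Over all probe sets 3037 of 40543 were counted, and with 1 probe set for each gene 1864 of 22180. The differences were positive for 20 chains and negative for 24, with a median of -0.01 against 0.00 over all probe sets. In whole lungs, fewer cells of a type and less RNA per cell cannot be told apart.

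**Figure D1:**
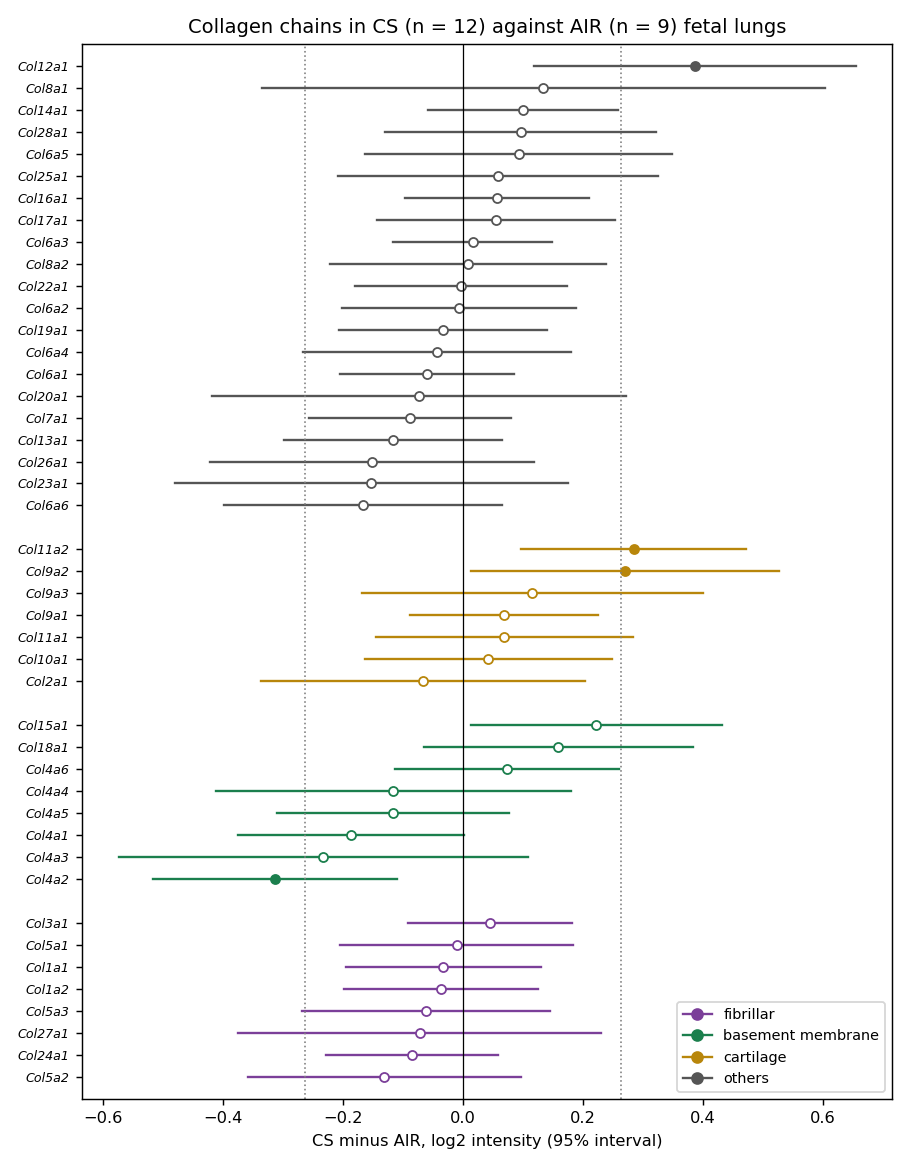
Difference between CS (n = 12) and AIR (n = 9) fetal lungs in log2 intensity for each of the 44 collagen chains, grouped by class, with the 95% interval from limma as a line. Filled points passed the study threshold, open points did not, and the dotted lines mark the fold limit of 1.2. The 4 filled points are Col12a1, Col11a2, Col9a2 and Col4a2.

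The basement membrane class had the lowest median difference of the classes, -0.12 over its 8 chains, with values from -0.31 to 0.22. The type IV chains combine into different triple helices. The chains of Col4a1 and Col4a2 form the network found in nearly all basement membranes, those of Col4a3, Col4a4 and Col4a5 the network of the alveolar and glomerular basement membranes, and those of Col4a5 and Col4a6 a network of smooth muscle and some epithelia. The genes lie in pairs that are transcribed away from each other. In the RefSeq promoter table of GRCm38.p6, the starts of Col4a1 and Col4a2 lie 21 bases apart on chromosome 8. The Col4a4 start of this table lies 72 bases from the Col4a3 start of the RefSeq gene table on chromosome 1. In the promoter table the starts of Col4a6 and Col4a5 lie 1343 bases apart on chromosome X. Annotated gene spans can reach past these starts, and those of Col4a1 and Col4a2 and of Col4a4 and Col4a3 overlap.

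A stretch just before the Col4a2 start, beside the starts of the first pair, and all bases between the starts of the second are shown because these are the pairs with the called chain and with the pattern by animal number described below. Both are RefSeq sequences of GRCm38.p6, with capitals for the GC box (GGGCGG, or CCGCCC on the other strand) and the CCAAT box (CCAAT). The stretch of Col4a2, at chr8:11312757-11312786 on the plus strand, ends 19 bases before the Col4a2 start and holds a GC box and a CCAAT box. It lies inside the Col4a1 gene, past the Col4a1 start at 11312826, and so is not upstream of both genes. The stretch of Col4a4, at chr1:82586850-82586920 and written on the minus strand, holds neither.
Col4a2: CCGCCCgaggagctccCCAATttgttggcg
Col4a4: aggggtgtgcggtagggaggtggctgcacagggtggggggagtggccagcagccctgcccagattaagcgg

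Over the collagens, 38 promoter windows of 35 genes were in the RefSeq table, each from 250 bases before to 50 bases after a start. A GC box on either strand was in 60.5% of these windows and in 35.7% of all 32851 windows. A CCAAT box on either strand was in 34.2% against 37.4%, and a TATA box (TATAA) in 18.4% against 24.9%. These counts describe letters in a window and are not evidence of binding.

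Col4a2 (chr8:11312805-11449287) was the basement membrane chain that was lower in CS lungs. Its log2 intensity had a lowest value of 4.45, a median of 4.94 and a highest value of 5.34 in CS lungs. In AIR lungs these were 4.97, 5.23 and 5.59. The groups overlapped, and 11 of 12 CS fetuses lay below the AIR mean. The means were 4.92 ± 0.25 (SD, n = 12) and 5.23 ± 0.17 (SD, n = 9), so that Col4a2 fell by 0.31 (SE 0.10, 95% interval -0.52 to -0.11), a 1.24-fold decrease. The limma adjusted p was 0.468 and the exact two-sided permutation p over all 293930 regroupings of the fetuses was 0.0041, not adjusted over genes.

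Its partner Col4a1 (chr8:11198423-11312889) ranged from 6.20 to 6.85 in CS lungs, with a median of 6.62. In AIR lungs it ranged from 6.49 to 7.14, with a median of 6.76. The groups overlapped widely, and the difference of -0.19 (SE 0.09) stayed within the fold limit (exact permutation p = 0.0488, limma adjusted p = 0.669). Across the 21 fetuses Col4a1 and Col4a2 had a Pearson r of 0.64 and a Spearman rho of 0.57. Among 14 pairs of chains of shared molecules the adjusted permutation p were 0.0220 for r and 0.0560 for rho. Without the 2 fetuses farthest from the median of Col4a1, r was 0.49. It was 0.78 within CS and -0.06 within AIR lungs, 0.76 within the lower and 0.12 within the higher animal numbers. For deviations from the group means r was 0.53, with an adjusted permutation p of 0.0927.

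Of the remaining type IV chains, Col4a3 had a difference of -0.23 (SE 0.16), Col4a4 of -0.12 (SE 0.14) and Col4a5 of -0.12 (SE 0.09). Col4a6, whose mean lay below the median probe set, had a difference of 0.07 (SE 0.09). None of these passed the study threshold, and CS and AIR fetuses overlapped for each.

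The other basement membrane chains, Col15a1 and Col18a1, carry a C-terminal domain that can be released, known for Col18a1 as endostatin. Col15a1, named here because it lay just inside the fold limit, ranged from 3.31 to 4.33 in CS lungs with a median of 3.76. In AIR lungs it ranged from 3.20 to 3.70 with a median of 3.60. The groups overlapped, and the 1.17-fold difference of 0.22 (SE 0.10) had an exact permutation p of 0.0370 and a limma adjusted p of 0.644. Col18a1 had a difference of 0.16 (SE 0.11) with the sexes merged, and is taken up again with the sexes.

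The collagen chains were also compared within each range of animal numbers. In the lower range 7 collagen chains passed the study threshold, with Col4a1, Col4a2, Col4a3 and Col4a4 lower and Col4a6, Col15a1 and Col12a1 higher in CS lungs. Over all probe sets 8.25% were called in this range. A limma adjusted p under 0.10 was reached here by 424 probe sets, among them 1 collagen chain, Col4a4. In the higher range 1 chain was called, Col4a4, which was higher in CS lungs, against 4.27% of all probe sets. The median difference of the basement membrane chains was -0.21 in the lower and -0.01 in the higher range.

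Col4a4 (chr1:82448419-82587034), whose mutation causes Alport syndrome in humans, went in opposite directions in the ranges. Among the lower numbers the 8 CS lungs had values of 3.06 to 3.71 with a median of 3.27, and the 3 AIR lungs had values of 3.84, 3.94 and 4.13. These groups did not overlap. The difference of -0.66 (SE 0.14) had a limma adjusted p of 0.0312 and an exact permutation p of 0.00606, the smallest that 165 regroupings can give. Among the higher numbers the 4 CS lungs had values of 3.60, 3.90, 4.06 and 4.10, and the 6 AIR lungs 3.28 to 3.61 with a median of 3.47. Here the lowest CS fetus lay just below the highest AIR fetus, and the difference of 0.45 (SE 0.13) had an exact permutation p of 0.00952 and a limma adjusted p of 0.999.

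The difference between the ranges was 1.11 (SE 0.19) for Col4a4, with a limma adjusted p of 0.0606. It was 1 of 19 probe sets with an adjusted p under 0.10 for this difference, and lay between 1.03 and 1.21 when each fetus was left out in turn. In the AIR lungs alone, Col4a4 was 3.97 ± 0.15 (SD, n = 3) in the lower and 3.46 ± 0.15 (SD, n = 6) in the higher range. In the CS lungs it was 3.32 ± 0.22 (SD, n = 8) and 3.92 ± 0.22 (SD, n = 4), the opposite order. Without the arrays high in another tissue the difference between the ranges was 1.09, but the lower range then held 1 AIR and 6 CS fetuses, and the higher range no longer passed the threshold at 0.36.

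Col4a3 (chr1:82586921-82722059), the neighbour of Col4a4, had values of 3.11 to 4.25 with a median of 3.78 in the CS lungs of the lower range and of 4.04, 4.38 and 4.62 in the AIR lungs. The difference was -0.60 (SE 0.24, exact permutation p = 0.0485). In the higher range the CS lungs had values of 3.52, 3.82, 4.42 and 4.66 and the AIR lungs ranged from 3.65 to 4.24 with a median of 3.98. The AIR fetuses lay within the spread of the CS fetuses, with a difference of 0.13. The change between the ranges was 0.74, with a limma adjusted p of 0.69. Across the 21 fetuses Col4a3 and Col4a4 had a Pearson r of 0.46 and a Spearman rho of 0.48 (adjusted permutation p = 0.116 and 0.146). Without the 2 fetuses farthest from the median of Col4a3 r was 0.43, within CS lungs 0.34, within AIR lungs 0.68, within the lower range 0.72 and within the higher range -0.05.

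**Figure D2:**
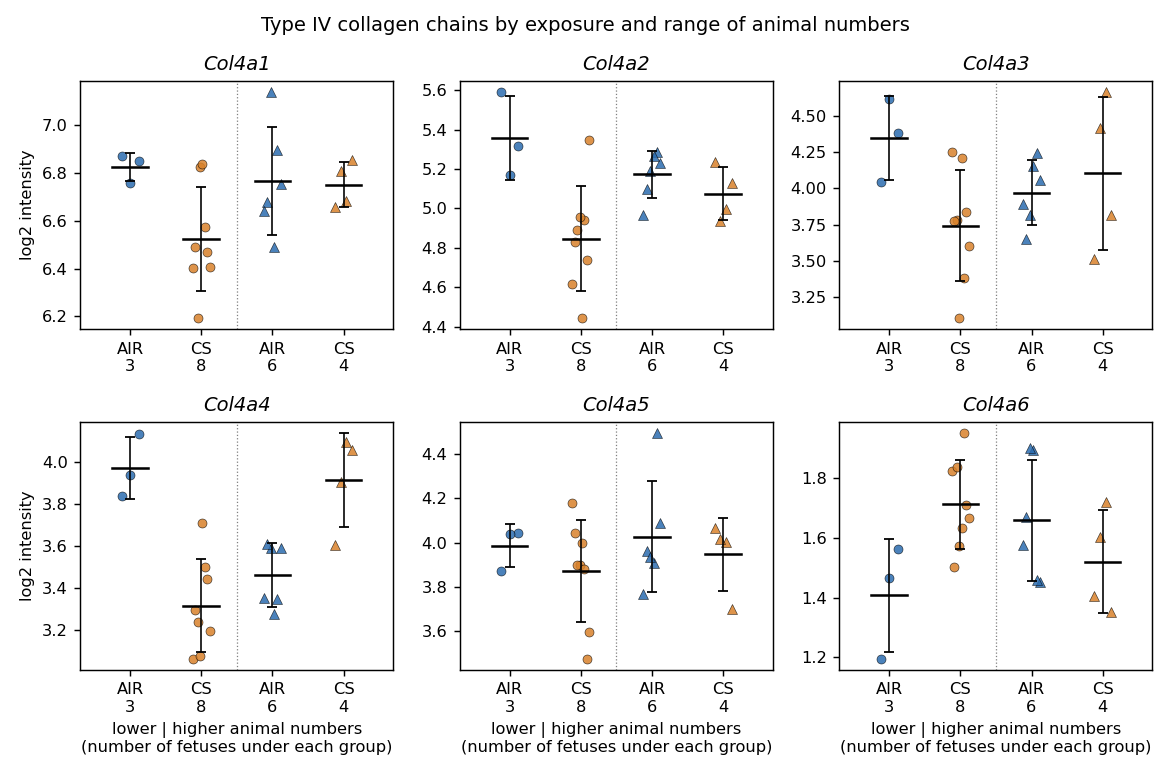
Log2 intensity of the 6 type IV chains in each fetus, by exposure and range of animal numbers, with the number of fetuses under each group. Bars show mean ± SD, circles the lower and triangles the higher numbers. For Col4a4 the CS fetuses lie below the AIR fetuses in the lower range and mostly above them in the higher range.

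Col4a2 had a difference of -0.51 in the lower range (exact permutation p = 0.0242) and of -0.10 in the higher range (exact permutation p = 0.262). In the lower range its CS lungs had values of 4.45 to 5.34 with a median of 4.86 and its AIR lungs 5.17, 5.32 and 5.59. In the higher range the CS lungs had values of 4.93, 5.0, 5.13 and 5.23, and the AIR lungs 4.97 to 5.28 with a median of 5.21. The groups overlapped in both ranges, and only 1 CS fetus of the lower range reached the AIR values. For the difference between the ranges, 5 chains had an unadjusted p under 0.05 (Col4a2, Col4a3, Col4a4, Col4a6 and Col6a1) against 6.76% of all probe sets. Only Col4a4 among them had an adjusted p under 0.10. Leaving out AIR fetus 1, a male, brought the calls of the lower range from 7 to 4. In that range the call of Col4a1 was lost without any one of CS 3, 8, 9 and 10 or AIR 1, 2 and 6, that of Col4a3 without AIR 1 or 6 and that of Col4a6 without AIR 2. For the difference between the ranges, Col4a2 no longer had an unadjusted p under 0.05 without any one of 13 fetuses, Col4a3 of 7, Col6a1 of 4 and Col4a6 of 1, while Col4a4 kept it in all 21 fits.

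Values of markers of the cells that rest on these membranes are given beside the type IV chains. The median difference over 10 endothelial markers was -0.35 in the lower and 0.06 in the higher range. All 10 had means above the median probe set. The mean of the list lay between 6.20 and 6.51 in CS and between 6.27 and 6.74 in AIR lungs. In the lower range the 3 AIR lungs lay between 6.68 and 6.74, above all 8 CS lungs, whose highest value was 6.51. In the higher range the groups overlapped. Over 11 lung epithelial markers the median difference was -0.18 in the pooled groups, where 4 were lower and 0 higher at the study threshold, -0.21 in the lower and 0.03 in the higher range. All 11 epithelial markers had means above the median probe set. The mean of the list lay between 6.92 and 7.63 in CS and between 7.32 and 7.67 in AIR lungs. In the lower range the 3 AIR lungs lay between 7.62 and 7.67, above all 8 CS lungs, whose highest value was 7.45. The groups overlapped in the higher range. Among the epithelial markers Ager, a marker of alveolar type I cells, had differences of -0.41 in the lower and 0.09 in the higher range. Hopx, which also marks these cells, had differences of 0.08 and 0.17. Over 10 lung mesenchymal markers the median difference was -0.18 in the lower and 0.04 in the higher range, and over 6 mesothelial markers -0.18 and 0.27. The differences between the ranges were not tested for these lists, and their part in the values of the type IV chains was not tested.

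The fibrillar chains gave 0 calls in either direction at the study threshold. Type I collagen, formed by Col1a1 and Col1a2, and type III collagen, formed by Col3a1, are the main fibril formers of the lung. Col1a2 ranged from 8.44 to 8.89 in CS lungs with a median of 8.76, and from 8.49 to 9.07 in AIR lungs with a median of 8.82. The difference was -0.04 (SE 0.08, 95% interval -0.20 to 0.12). Col3a1 ranged from 6.56 to 6.92 with a median of 6.84 in CS and from 6.60 to 7.06 with a median of 6.71 in AIR lungs. Its difference was 0.05 (SE 0.07, 95% interval -0.09 to 0.18). CS and AIR fetuses overlapped for both genes.

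Col1a1, added to complete type I collagen, differed by -0.03 (SE 0.08, 95% interval -0.20 to 0.13). Its r with Col1a2 was 0.31 and its rho 0.26 over the 21 fetuses (adjusted permutation p = 0.243 and 0.358). Type V collagen regulates how fibrils start and how thick they become. Its chains and the minor chains of types XXIV and XXVII differed by -0.13 to -0.01. Of these, Col24a1 had a difference of -0.09 (SE 0.07), the lowest p of the class, and a mean below the median probe set.

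The probe sets of Col5a1, a chain that starts type I fibrils, did not give the same result. The brighter probe set, which stood for the gene, differed by -0.01. The dimmer one was 3.30 ± 0.27 (SD, n = 12) after CS against 2.95 ± 0.24 (SD, n = 9) in AIR lungs. The difference was 0.35 (SE 0.11) and passed the study threshold, with a limma adjusted p of 0.477. It was named after its values were seen. Its difference was 0.32 in the lower and 0.25 in the higher range, and 0.36 in females and 0.34 in males. The part of the transcript that each probe set reads is not given in the sources used here. The second probe sets of Col1a2, with a difference of 0.10, and of Col6a1, with -0.20, did not pass.

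The cartilage chains had the highest median difference of the classes, 0.07 over 7 chains, of which 6 had a positive difference. Type II collagen, formed by Col2a1, makes the fibrils of cartilage, type XI collagen controls their diameter, type IX collagen coats them, and type X collagen marks cartilage that turns to bone. Both called chains of the class were dim, and Col11a2 had a mean below the median probe set.

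Col11a2 (chr17:34038919-34066684) ranged from 1.88 to 2.49 in CS lungs with a median of 2.09. In AIR lungs it ranged from 1.59 to 2.14 with a median of 1.85. The groups overlapped, with 11 of 12 CS fetuses above the AIR mean. The means were 2.16 ± 0.20 (SD, n = 12) and 1.88 ± 0.19 (SD, n = 9), a 1.22-fold difference of 0.28 (SE 0.09, 95% interval 0.10 to 0.47), with an exact permutation p of 0.0048 and a limma adjusted p of 0.473. The difference was 0.28 in the lower and 0.24 in the higher range. It no longer passed the threshold without CS fetus 8, without AIR fetus 4, with the number range as a block, where it was 0.26, or without the arrays high in another tissue, where it was 0.28.

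Col9a2 (chr4:121039566-121055325) ranged from 2.19 to 3.06 in CS lungs with a median of 2.66. In AIR lungs it ranged from 1.92 to 2.77 with a median of 2.53. The groups overlapped widely, with 10 of 12 CS fetuses above the AIR mean. The means were 2.67 ± 0.27 (SD, n = 12) and 2.40 ± 0.32 (SD, n = 9), a 1.21-fold difference of 0.27 (SE 0.12, 95% interval 0.01 to 0.53). The exact permutation p was 0.0475 and the limma adjusted p 0.644. Its call was lost without any single one of 9 fetuses (CS 2, 3, 5, 8 and 11 and AIR 1, 2, 4 and 7), and also with the number range as a block (0.27), with array weights (0.25) and without the arrays high in another tissue (0.17).

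Stretches before the starts of these genes in the promoter table are shown for the motifs they hold. They are again from RefSeq GRCm38.p6 on the plus strand with the same capitals, and TATAA also in capitals. The Col9a2 stretch, at chr4:121039536-121039565, ends right before the start and has a GC box on each strand. The Col11a2 stretch, at chr17:34038992-34039017, has a TATA box and a GC box. It lies upstream of the start in the promoter table, but not right before it. It also lies inside the annotated Col11a2 span, which begins at 34038919, and so is not upstream of the whole gene. Whether these letters act in transcription of Col11a2 was not tested.
Col9a2: agatCCGCCCctgaccGGGCGGagctggac
Col11a2: gtcTATAAacaccCCGCCCaggactg

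**Figure D3:**
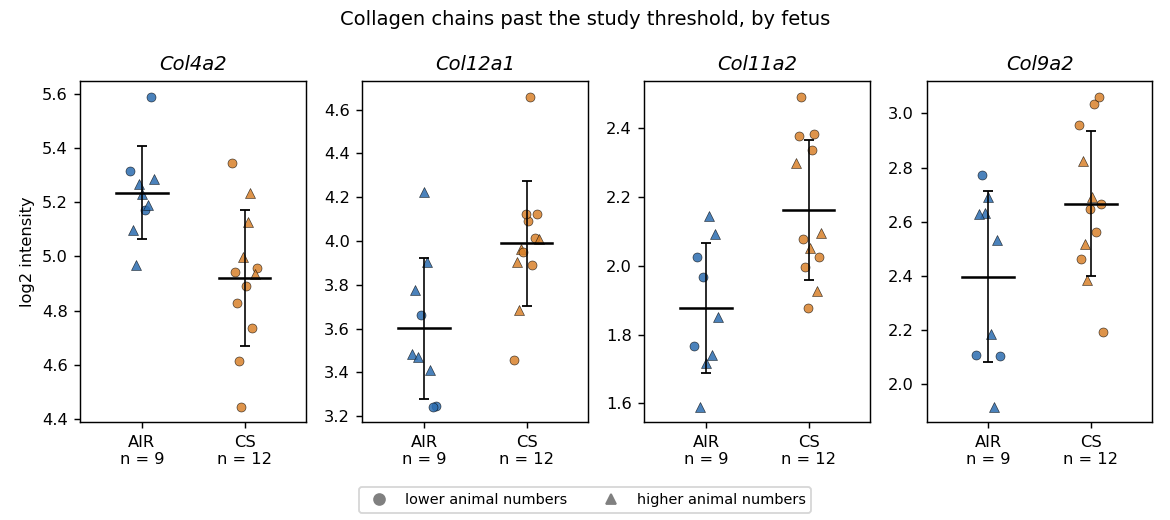
Log2 intensity of the 4 collagen chains past the study threshold in each AIR (n = 9) and CS (n = 12) fetus, with mean ± SD as bars. Circles are lower and triangles higher animal numbers. Col4a2 is lower in CS lungs by 0.31, Col12a1, Col11a2 and Col9a2 are higher by 0.39, 0.28 and 0.27, and the groups overlap in each panel.

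The other cartilage chains stayed inside the fold limit. Col2a1 differed by -0.07 (SE 0.13) and Col10a1, which ranged from 2.71 to 3.76 in CS and from 2.89 to 3.37 in AIR lungs, by 0.04 (SE 0.10). Col2a1 and Col11a1 had an r of 0.61 and a rho of 0.61 over the 21 fetuses (adjusted permutation p = 0.0227 and 0.0535), r = 0.37 without the 2 fetuses farthest from the median of Col2a1, and r = 0.64 for deviations from the group means (adjusted permutation p = 0.0258). Within CS lungs r was 0.69, within AIR lungs 0.64, within the lower range 0.68 and within the higher range 0.41. Of the 14 pairs, this one and Col4a1 with Col4a2 had an adjusted p under 0.05 for r, and 0 pairs did for rho.

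The mean over 15 other cartilage markers lay between 3.02 and 3.28 in CS and between 3.01 and 3.22 in AIR lungs. Of these markers 1 was higher (Cytl1) and 1 lower (Chad) in CS lungs at the study threshold, by which 4.41% of all probe sets were called. Of the 15 markers, 8 had means above the median probe set. Among the markers below that median, the matrix genes Acan, Matn1 and Comp had means of 1.83, 1.55 and 1.68, near the background. With the mean of the cartilage list as a covariate the differences of Col11a2 and Col9a2 were 0.29 and 0.28, and both still passed the threshold. Over 9 bone and tendon markers the median difference was 0.10, with 2 higher and 0 lower in CS lungs at that threshold. It was 0.21 in the lower and 0.03 in the higher range. Of these 9 markers, 4 had means above the median probe set, and their part in the collagen values was not tested.

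**Figure D4:**
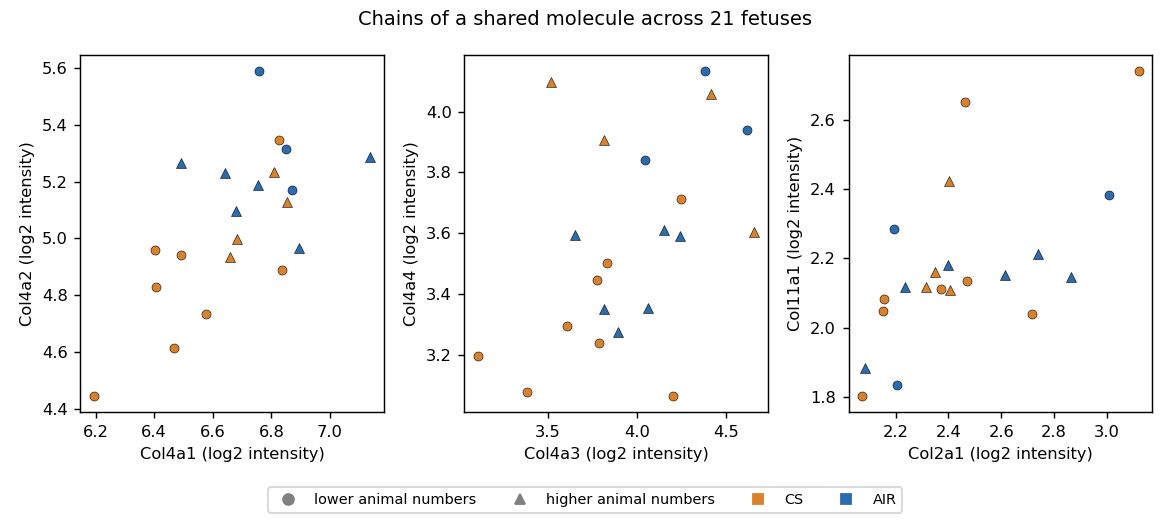
Log2 intensity of Col4a2 against Col4a1, Col4a4 against Col4a3 and Col11a1 against Col2a1 in the 21 fetuses, by exposure (colour) and range of animal numbers (circles lower, triangles higher). Pearson r was 0.64, 0.46 and 0.61. Within the higher range r was 0.12, -0.05 and 0.41.

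Of the 21 other chains 1 was called. Col12a1 (chr9:79598987-79721141), a fibril-associated collagen that lies on the surface of type I fibrils, ranged from 3.46 to 4.66 in CS lungs with a median of 3.99. In AIR lungs it ranged from 3.24 to 4.22 with a median of 3.49. The groups overlapped, with 11 of 12 CS fetuses above the AIR mean. The means were 3.99 ± 0.28 (SD, n = 12) and 3.60 ± 0.32 (SD, n = 9), a 1.31-fold difference of 0.39 (SE 0.13, 95% interval 0.12 to 0.65), with an exact permutation p of 0.0088 and a limma adjusted p of 0.482.

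In the lower range Col12a1 had values of 3.46 to 4.66 with a median of 4.05 in CS lungs and of 3.24, 3.25 and 3.66 in AIR lungs. The difference was 0.66 (exact permutation p = 0.0121), and 7 of 8 CS fetuses lay above all AIR fetuses. In the higher range the CS values were 3.68, 3.90, 3.96 and 4.01 and the AIR values 3.41 to 4.22 with a median of 3.63, a difference of 0.18. The difference between the ranges was -0.48 (limma adjusted p = 0.81). Without the arrays high in another tissue, with 8 CS and 3 AIR fetuses left, the pooled difference was 0.73.

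The chains of type VI collagen, which forms beaded filaments close to cells, gave 0 calls. Col6a1 ranged from 8.27 to 8.72 with a median of 8.54 in CS and from 8.38 to 8.74 with a median of 8.55 in AIR lungs, a difference of -0.06 (SE 0.07). Col6a3 ranged from 7.03 to 7.53 with a median of 7.40 in CS and from 7.17 to 7.47 with a median of 7.36 in AIR lungs, a difference of 0.02 (SE 0.06, 95% interval -0.12 to 0.15). By range Col6a1 differed by -0.23 among the lower and 0.10 among the higher numbers, a change of 0.32 with a limma adjusted p of 0.65. The remaining others, among them the transmembrane, anchoring fibril and short-chain types, had differences from -0.17 to 0.13, and 9 of the 21 had means below the median probe set.

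By sex, 4 chains passed the study threshold in females (Col4a1 and Col4a2 lower, Col18a1 and Col12a1 higher) against 5.38% of all probe sets. In males 2 passed (Col11a2 and Col9a2, both higher) against 4.91%. For the difference between the sexes, tested for every chain in the same fit, 1 chain had an unadjusted p under 0.05, Col18a1, against 4.41% of all probe sets, and its limma adjusted p was 1.0. A chain called in one sex and not in the other is therefore not shown to differ between them.

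Col18a1 had values of 3.28 to 3.98 with a median of 3.77 in the 6 CS females and of 3.05, 3.19, 3.31 and 3.32 in the 4 AIR females. Of the CS females, 5 lay above all AIR females, and the difference was 0.47 (SE 0.14, exact permutation p = 0.0190). In males the CS values were 3.27 to 3.63 with a median of 3.39 and the AIR values 3.20, 3.51, 3.59, 3.66 and 3.80. The male groups overlapped, with a difference of -0.12 (SE 0.13, exact permutation p = 0.310). The effect in males minus that in females was -0.59, and -0.47 without the arrays high in another tissue, where it no longer had an unadjusted p under 0.05.

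Col4a2 had differences of -0.42 in females (exact permutation p = 0.0286) and -0.21 in males, Col12a1 of 0.50 and 0.27, Col11a2 of 0.23 and 0.33, and Col9a2 of 0.14 and 0.39. Each of these had the same sign in both sexes. Col2a1 had effects of 0.17 in females and -0.29 in males, and Col5a3, a minor type V chain, by 0.12 and -0.23, with neither difference between the sexes past an unadjusted p of 0.05.

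**Figure D5:**
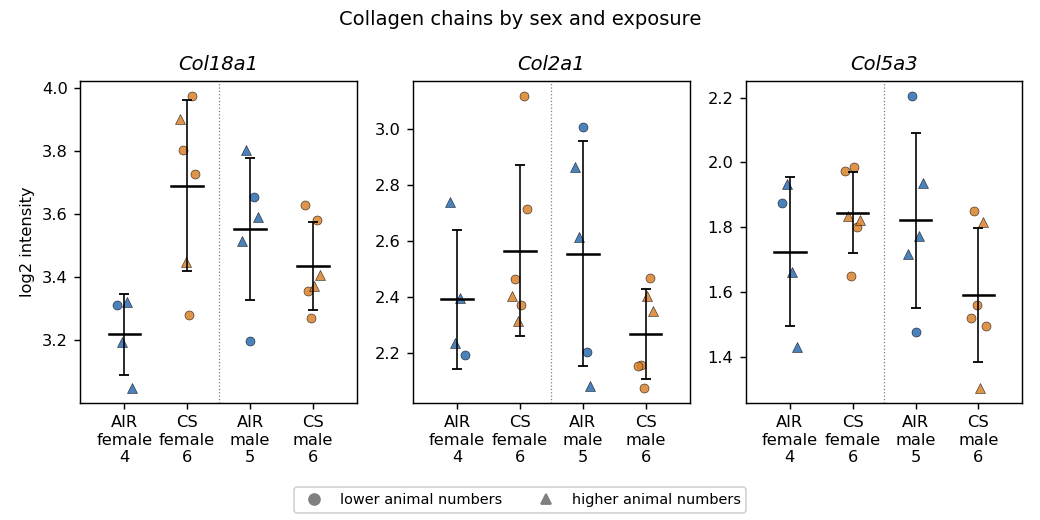
Log2 intensity of Col18a1, Col2a1 and Col5a3, the 3 chains whose effects differed between the sexes at the lowest p, in each fetus by sex and exposure, with mean ± SD as bars. The number of fetuses is under each group, circles are lower and triangles higher animal numbers. In females the CS mean of Col18a1 lies above the AIR mean by 0.47, and in males it lies below it by 0.12.

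Genes that make, bind and degrade collagen were examined in 6 lists, with 75 of 81 listed genes on probe sets of their own. Of these 2 were higher and 3 lower in CS lungs at the study threshold, 6.67% of the genes against 4.41% of all probe sets, with a median difference of -0.02. Among 19 genes of collagen modification and folding, 1 was higher, among 12 of processing and cross-linking 1 was lower, and among 11 fibril-associated proteins 1 was higher and 2 were lower. The 9 collagen receptors, the 14 basement membrane partners such as laminins, and the 10 genes of collagen degradation gave 0 calls.

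P4ha3, a subunit of the prolyl hydroxylase that stabilises the triple helix, was 3.40 ± 0.44 (SD, n = 12) after CS against 2.92 ± 0.41 (SD, n = 9) after AIR. Its difference of 0.48 (SE 0.18) came with 0.92 in the lower and 0.12 in the higher range. Pcolce2, an enhancer of procollagen processing, was 4.76 ± 0.37 (SD, n = 12) after CS against 5.24 ± 0.42 (SD, n = 9) after AIR. It fell by 0.48 (SE 0.16), with differences of -1.0 in the lower range (limma adjusted p = 0.035) and -0.13 in the higher range. For the difference between the ranges the limma adjusted p were 0.680 for P4ha3 and 0.503 for Pcolce2.

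Fn1, fibronectin, which cells lay down before collagen fibrils, was 9.68 ± 0.23 (SD, n = 12) after CS against 9.97 ± 0.21 (SD, n = 9) after AIR. All 12 CS fetuses lay below the AIR mean, and the differences were -0.58 in the lower and -0.02 in the higher range. Dpt, dermatopontin, which binds collagen and decorin, was 8.15 ± 0.17 (SD, n = 12) after CS against 8.49 ± 0.22 (SD, n = 9) after AIR, with all 12 CS fetuses below the AIR mean and differences of -0.57 and -0.16. Fmod, fibromodulin, a small proteoglycan on fibrils, was 5.26 ± 0.63 (SD, n = 12) after CS against 4.70 ± 0.52 (SD, n = 9) after AIR, with differences of 1.18 and -0.10. Their pooled limma adjusted p were 0.494 for Fn1, 0.416 for Dpt and 0.617 for Fmod. Calls were lost for Fmod without any one of 6 fetuses (CS 3, 7 and 9, AIR 1, 3 and 7) and for Fn1 without CS 7 or AIR 1.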

How the data were processed

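The authors hybridised RNA of each fetal lung to Affymetrix arrays and summarised the scans with Expression Console 1.3.0.187. As deposited, each probe set has a log2 intensity from RMA, with background correction, sketch-quantile normalization and median polish. They left out 3 AIR arrays after quality control. Detection calls were not used here. Of 41345 probe sets, 802 redundant ones were removed and 40543 were fitted with limma 3.58.1 (lmFit and eBayes) in R 4.3.3, sexes merged, with Benjamini-Hochberg adjustment over all of them. Further fits gave each sex, or each range of animal numbers, and exposure its own mean. Exact permutation tests enumerated all regroupings with numpy 2.4.6 in Python 3.11.15, checked on a small simulated case against scipy 1.17.1. The correlations used 100000 resamples. The number of arrays limits the precision. The fits were tested on simulated data. Members and gene lists were chosen with earlier results of these data known. Named were called chains, the 2 brightest and the one of lowest p per class, all type IV chains, the 3 of lowest p for a difference between sexes and between ranges, and called partner genes. Others are named as additions. Promoters and positions came from RefSeq tables of GRCm38.p6. Alternatives changed the probe sets, variance model, normalization, weights, covariates, blocks and arrays. Replicate numbers did not pair the samples.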

Additional observations from a re-analysis of the deposited data

Results flagged for a closer look

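For the effect of CS, 5 of 44 chains had an unadjusted p under 0.05 in limma for a difference between the ranges of animal numbers, against 6.76% of all probe sets, and 1 for a difference between the sexes, against 4.41%. After adjustment over all probe sets only Col4a4 had a p under 0.10 (0.0606), and Col18a1 had one of 1.0. The higher minus the lower range gave 0.41 for Col4a2, 0.74 for Col4a3, 1.11 for Col4a4, -0.44 for Col4a6 and 0.32 for Col6a1. Males minus females gave -0.59 for Col18a1. Among AIR fetuses, replicate 7, a female, lay apart from the others for 2 chains. It had the highest Col4a5 value, 4.496, with the nearest at 4.088, and the lowest Col15a1 value, 3.20, with the nearest at 3.47. In all 2 of 44 AIR groups had such a value, and chance flags about 1 in 20.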

How the results depend on the processing

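Of 128 counts, class medians and list values recomputed under the alternatives other than leaving out single fetuses, 113 stayed close. The 4 collagen calls became 2 with the number range as a block and 0 at an adjusted p under 0.10. In CS against AIR, all probe sets together gave 1789 calls. These became 1095 with only those of 1 symbol and 0 at that adjusted p. They became 2697 in the 8 CS and 3 AIR arrays left without the arrays high in another tissue. The 5 calls of partner genes became 9 without these arrays and 0 at that adjusted p. Without these arrays calls were 2 in females, 3 for the difference between sexes, 4 in the lower and 2 in the higher range, and 3 for the difference between ranges. With the number range as an added term males had 1 call, and a separate fit gave the higher range 2. The alternatives by sex and by range without these arrays or with this term were chosen after seeing the data. For deviations from group means 1 pair of chains was past the threshold. Replicate numbers did not pair the fetuses, with correlations of same-numbered deviations from -0.07 to 0.13, and with the replicate number as a block 6 chains were called, 4 higher and 2 lower.

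Signs turned for values that were not called. For Col6a3, CS against AIR gave -0.0054 with the replicate block and -0.0015 with the cartilage covariate. Col2a1 became 0.037 with the heart covariate, and Col1a2 0.031 as a mean of probe sets. Without the arrays high in another tissue the values were 0.20 for Col2a1, 0.062 for Col1a2, 0.081 for Col4a5, -0.030 for Col4a6, 0.058 for Col6a1, 0.15 for Col2a1 in males and 0.047 for Col4a1 in the higher range. With each fetus left out in turn Col10a1 lay between -0.016 and 0.080, Col6a3 between -0.0063 and 0.047, and in the higher range Col4a1 between -0.071 and 0.058 and Col4a3 between -0.054 and 0.33. Col11a2 (0.26) and Col9a2 (0.27) lost their calls with the number range as a block, and Col9a2 with array weights (0.25). The cause was not tested.

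With each fetus left out in turn the calls lay between 2 and 4 for collagens (2 without CS 8 or AIR 4) and between 3 and 8 for partner genes (3 without CS 7 or AIR 1, 8 without CS 12). They lay between 2 and 5 in females (2 without AIR 6), 1 and 3 in males (1 without CS 2 or 3) and 1 and 2 for the difference between sexes (2 without CS 1, 9 or 12 or AIR 1, 2, 4, 7 or 9). They lay between 4 and 9 in the lower range (4 without AIR 1), 1 and 2 in the higher range (2 without CS 11 or AIR 7), and 2 and 7 for the difference between ranges (2 without CS 12 or AIR 1, 3 without AIR 2 or 3). The number of arrays limits small differences, and dim chains lie near the background.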
